A study of Mus musculus with 23 samples.

Results

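The genes described here are 10 members of the BCL2 family, the proteins that decide whether a cell survives or starts the mitochondrial programme of cell death: Bcl2, Bcl2l1, Mcl1, Bcl2l11, Bax, Bak1, Bbc3, Pmaip1, Bid and Bad. They were taken as a named list, chosen with earlier results of these data known. The array annotation named 9 of the 10, all 9 passed the filter on low values, and they stand among 15542 genes tested of 19938 named. No probe set carried the symbol Bax, so Bax was not analysed here. Each of the other members was read by a single probe set. RNA came from bone marrow of mice that had all received a single dose of 2 Gy at 2 months of age, and each sample was run on 1 array. Leukemic marrow came from 10 Pax5+/- mice (leukemias 1 to 10) and from 3 wild-type (WT) mice (14, 15 and 17). Pro-B and pre-B cells without leukemia, called preleukemic, came from 7 Pax5+/- mice (11 to 13 and 21 to 24) and 3 WT mice (18 to 20), 3 weeks after the dose. Pax5+/- mice carry 1 working copy of Pax5, a transcription factor that holds cells in the B lineage.

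The groups differ in more than the disease. Leukemic samples are pro-B cells by title but marrow cells by description, and no sort is stated. The preleukemic titles name pro-B and pre-B cells. The preparation of the cells, their maturity in the B lineage and the disease stage therefore cannot be told apart. The time since irradiation is given for the preleukemic samples alone. Sex is not stated, and Xist was high in 3 of 3 WT leukemias and 0 of 3 WT preleukemic samples, so in WT mice sex and stage cannot be told apart. In Pax5+/- mice it was high in 5 of 10 leukemias and 3 of 7 preleukemic samples. The median log2 signal per array was 6.06 to 6.2. The defining early B cell markers were present throughout, with a summed log2 signal of 15.26 to 15.45 in the 10 preleukemic samples and 13.64 to 14.96 in the 13 leukemias.

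BCL2 family proteins act at the outer membrane of the mitochondrion. Survival members (Bcl2, Bcl2l1, which encodes BCL-XL, and Mcl1) hold the pore-forming effectors BAX and BAK in check, and the BH3-only members (Bcl2l11, which encodes BIM, Bid, Bbc3, which encodes PUMA, Pmaip1, which encodes NOXA, and Bad) bind the survival members or activate the effectors. Early B cells change their reliance on the survival members as they mature, interleukin-7 signalling sustains Mcl1 and Bcl2, pre-B cells are known for Bcl2l1, and p53 switches on Bbc3, Pmaip1 and Bax after DNA damage.

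In Pax5+/- mice the survival genes did not move together: Bcl2 was 6.47-fold higher in leukemia, Bcl2l1 was 4.81-fold lower and Mcl1 was 1.92-fold lower. Of the death genes, Bid was 2.39-fold higher, Bak1 and Pmaip1 rose by less than 1.2-fold, and Bcl2l11, Bbc3 and Bad did not pass the test. In WT mice Bcl2l1 and Mcl1 fell, and no member rose past the threshold. In Pax5+/- mice markers of megakaryocytes, neutrophils and monocytes rose with the stage, as given further on. In WT leukemia 5 of 5 megakaryocyte, 5 of 12 monocyte and macrophage and 1 of 14 neutrophil markers rose, where 17.9% of all genes did. In bulk samples, fewer cells of a type and less RNA per cell cannot be told apart. All differences are on the log2 scale of the deposited signal, each with its standard error (SE), and a gene was called at a limma adjusted p under 0.05 over all genes tested.

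The promoters of the genes whose levels moved most, Bcl2 and Bcl2l1, and of Bcl2l11 are shown to set their base composition and motifs beside the levels. Of the 10 members, 9 were in the RefSeq promoter table (GRCm38.p6), and windows of 250 bases upstream of the start are used. Bcl2 lies on the minus strand, with its window at chr1:106714291-106714540. For Bcl2l1, also on the minus strand, the outermost of 3 listed starts has its window at chr2:152831729-152831978. In both of these CpG dinucleotides are in capitals. The outer of 2 listed starts of Bcl2l11, on the plus strand, has its window at chr2:128125788-128126037, with a FOXO motif in capitals.
Bcl2: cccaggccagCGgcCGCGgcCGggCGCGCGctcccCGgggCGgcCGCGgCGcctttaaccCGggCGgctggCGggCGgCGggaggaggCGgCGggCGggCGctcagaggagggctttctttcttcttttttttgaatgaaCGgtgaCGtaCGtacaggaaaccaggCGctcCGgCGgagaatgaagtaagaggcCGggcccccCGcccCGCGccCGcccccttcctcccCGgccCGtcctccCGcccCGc
Bcl2l1: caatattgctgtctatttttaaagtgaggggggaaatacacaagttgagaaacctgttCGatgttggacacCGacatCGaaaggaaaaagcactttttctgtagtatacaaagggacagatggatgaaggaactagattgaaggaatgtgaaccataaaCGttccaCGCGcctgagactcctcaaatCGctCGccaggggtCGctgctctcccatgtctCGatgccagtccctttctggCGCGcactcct
Bcl2l11: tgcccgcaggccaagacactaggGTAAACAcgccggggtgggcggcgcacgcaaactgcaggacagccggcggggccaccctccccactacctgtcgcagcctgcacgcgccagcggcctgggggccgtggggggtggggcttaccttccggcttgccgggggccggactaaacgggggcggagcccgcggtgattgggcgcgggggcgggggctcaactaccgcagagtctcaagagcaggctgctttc
The Bcl2 window was 74.8% G and C with 36 CpG dinucleotides, against a median of 52.4% and 6 over 32851 promoter windows, of which 2.58% had at least as many CpG. The Bcl2l1 window shown was 47.6% G and C with 12 CpG, and its other starts had 0 and 11. Both strands were searched for 3 motifs. The FOXO motif GTAAACA, held by 3.17% of all windows, was at position -227 of the Bcl2l11 window shown and at -167 of 1 Bbc3 start. The E-box CACGTG, held by 6.02%, was at -64 of another Bbc3 start and at -9 of Bax. The STAT motif TTCNNNGAA, held by 7.02%, was in none of the members' windows. These matches describe letters in a window.

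Among the survival genes, Bcl2 showed the largest rise. Its log2 level in the Pax5+/- leukemias was 9.70, 10.23, 9.42, 11.65, 11.20, 10.26, 9.04, 10.09, 9.10 and 8.72 in samples 1 to 10. In the 7 Pax5+/- preleukemic samples it ran from 7.13 to 7.48, with a median of 7.22. All 10 leukemias were above all 7 preleukemic samples, with leukemias 4 and 5 highest and leukemia 10 lowest. The means were 9.94 ± 0.95 (SD, n = 10) and 7.25 ± 0.12 (SD, n = 7), a log2 difference of 2.69 (SE 0.35, 95% CI 1.96 to 3.42, limma adjusted p = 1.44e-06). The exact two-sided permutation p was 0.000103, the smallest that 10 against 7 samples can give. Only 93 of the 15542 genes, 0.598%, had a larger rise.

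In WT mice the Bcl2 levels were 8.64, 9.90 and 9.65 in leukemias 14, 15 and 17 and 7.26, 7.79 and 9.15 in preleukemic samples 18, 19 and 20. The groups overlapped, because preleukemic sample 20 was above leukemia 14. The log2 difference of 1.33 (SE 0.58, 95% CI 0.12 to 2.54) did not pass (limma adjusted p = 0.0764). Without sample 20 it was 1.87 and passed (adjusted p = 0.0181). It also passed, unchanged at 1.33, without Pax5+/- leukemia 4 (adjusted p = 0.0428), as the fit pools the spread of all groups. Sample 20 also stood apart in its markers, with a summed neutrophil signal of 15.14 against 10.76 and 10.86 in samples 18 and 19.

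Bcl2l1, whose long protein form BCL-XL protects pre-B cells, moved the other way. Its level was 6.95 to 7.68 in the Pax5+/- leukemias, with a median of 7.27, and 9.15 to 9.74 in the preleukemic samples, with a median of 9.55. No leukemia came within 1 log2 unit of any preleukemic sample. The means were 7.26 ± 0.24 (SD, n = 10) and 9.53 ± 0.19 (SD, n = 7), a difference of -2.26 (SE 0.14, 95% CI -2.56 to -1.97, limma adjusted p = 3.39e-11). The exact two-sided permutation p was 0.000103. Of all genes tested, 88 (0.566%) had a larger fall. Pre-B cells are named in the preleukemic titles alone, so their share and the level per cell cannot be told apart here.

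The WT levels of Bcl2l1 were 7.34, 8.63 and 8.15 in leukemias 14, 15 and 17, and 9.70, 9.89 and 9.34 before leukemia. All 3 leukemias were below all 3 preleukemic samples, and leukemia 14 alone fell inside the range of the Pax5+/- leukemias. The difference was -1.60 (SE 0.24, limma adjusted p = 3.27e-05). An exact permutation test of 3 against 3 samples cannot go below 0.1, which is the value it gave.

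Mcl1, which encodes a short-lived survival protein needed at many stages of blood cell development, had the tightest Pax5+/- preleukemic levels of the 9 members. It was 10.54 to 10.73 in the Pax5+/- preleukemic samples, with a median of 10.66, and 9.51 to 10.06 in the leukemias, with a median of 9.70. The groups did not overlap, and leukemia 2 was nearest to the preleukemic range. The difference was -0.94 (SE 0.08, 95% CI -1.10 to -0.78, limma adjusted p = 2.32e-09; exact permutation p = 0.000103). In WT mice the levels were 9.68, 9.57 and 9.73 in leukemia and 10.76, 10.53 and 10.36 before it. This fall of -0.89 (SE 0.13, limma adjusted p = 2.89e-05) was of the same size as in Pax5+/- mice, and the difference between the 2 falls was -0.05 (95% CI -0.36 to 0.27).

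**Figure D1:**
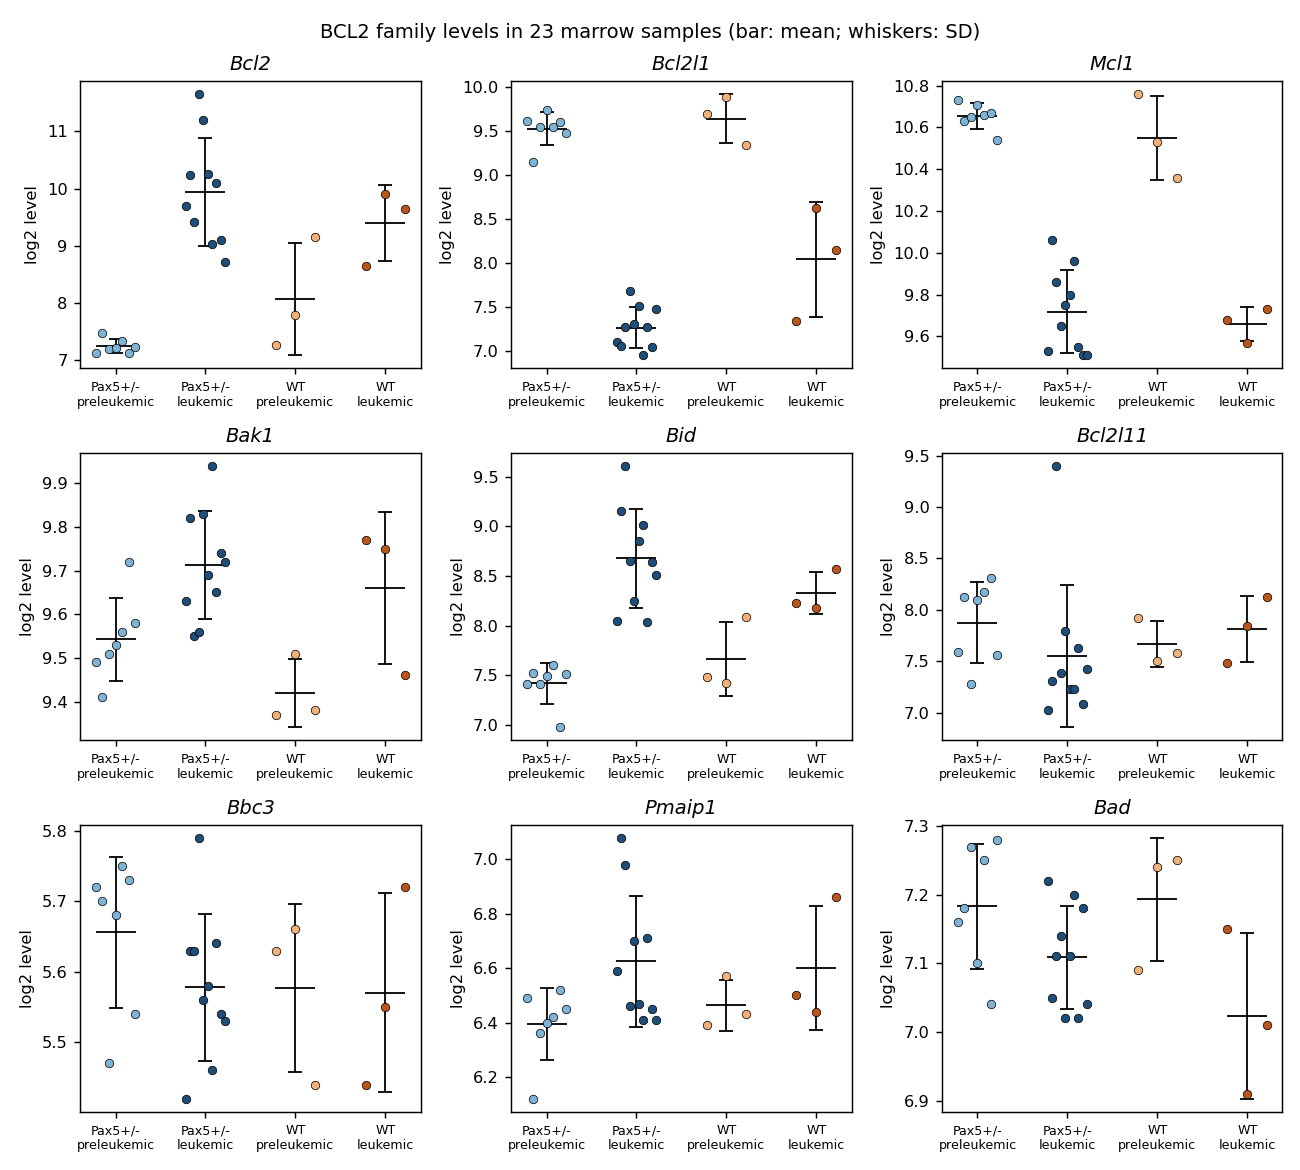
Log2 level of each of the 9 measured members (vertical axes, each with its own range that does not start at 0) in the 4 groups; points are samples, bars are means and whiskers are SDs. Bcl2 and Bid in the Pax5+/- leukemias sit above all Pax5+/- preleukemic samples, Bcl2l1 and Mcl1 below them, and the other 5 members overlap.

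Of the effectors, Bak1 encodes BAK, which opens the mitochondrial membrane. Its level was 9.55 to 9.94 in the Pax5+/- leukemias, with a median of 9.70, and 9.41 to 9.72 before leukemia, with a median of 9.53. The ranges overlapped, with 4 of 10 leukemias above every preleukemic sample. The rise was 0.17 (SE 0.06, a fold of 1.13, limma adjusted p = 0.0207; exact permutation p = 0.00833). The call was lost after quantile normalization (0.12, adjusted p = 0.0925) and without leukemias 2, 6 and 7 (adjusted p = 0.0904). In WT mice the levels were 9.77, 9.75 and 9.46 in leukemia and 9.37, 9.51 and 9.38 before it. That difference of 0.24 (SE 0.10) did not pass (limma adjusted p = 0.0692), and it passed without WT leukemia 17 (0.34, adjusted p = 0.0191).

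Among the BH3-only genes, Bid showed the one large difference. Its protein is cleaved by caspase-8 and carries the signal of death receptors to the mitochondrion. The level in Pax5+/- leukemias 1 to 10 was 8.05, 9.16, 9.61, 8.65, 8.25, 8.85, 9.01, 8.04, 8.64 and 8.51, and it was 6.98 to 7.60 before leukemia, with a median of 7.49. All 10 leukemias were above all 7 preleukemic samples, with leukemia 3 highest. The difference was 1.26 (SE 0.18, 95% CI 0.88 to 1.64, limma adjusted p = 5.44e-06; exact permutation p = 0.000103).

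In WT mice Bid was 8.23, 8.18 and 8.57 in leukemia and 7.48, 7.42 and 8.09 before it. The groups did not overlap, and sample 20 was the highest of the preleukemic samples. The difference of 0.66 (SE 0.30, a fold of 1.58) did not pass (limma adjusted p = 0.0873). It passed without sample 20 (0.88, adjusted p = 0.0363). It also passed, unchanged at 0.66, without Pax5+/- leukemia 3 (adjusted p = 0.0451), again through the pooled spread.

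Bcl2l11 encodes BIM, which removes developing B cells that lose survival signals. It was 7.03, 7.31, 9.40, 7.39, 7.79, 7.23, 7.23, 7.63, 7.08 and 7.42 in Pax5+/- leukemias 1 to 10, and 7.28 to 8.31 before leukemia, with a median of 8.10. Leukemia 3 was above all preleukemic samples, 4 leukemias were below all of them and 5 lay within their range. The difference was -0.33 (SE 0.25, limma adjusted p = 0.259) with all samples. Without leukemia 3 it was -0.53 and passed (adjusted p = 0.00432). In WT mice it was 7.48, 7.84 and 8.12 in leukemia and 7.92, 7.50 and 7.58 before it, a difference of 0.15 (SE 0.42, limma adjusted p = 0.799).

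Pmaip1 and Bbc3 are both targets of p53. Pmaip1 was 6.41 to 7.08 in the Pax5+/- leukemias, with a median of 6.53, and 6.12 to 6.52 before leukemia, with a median of 6.42. Of the 10 leukemias, 5 were above every preleukemic sample, and leukemias 2 and 3, at 7.08 and 6.98, were highest. The rise was 0.23 (SE 0.10, a fold of 1.17, limma adjusted p = 0.0387; exact permutation p = 0.0263). This call was lost, with adjusted p from 0.0516 to 0.0972, when leukemia 2, 3, 5 or 8 or preleukemic sample 12, 13, 21 or 22 was left out, and after quantile normalization (adjusted p = 0.0569). The WT levels were 6.50, 6.44 and 6.86 in leukemia and 6.39, 6.57 and 6.43 before it, a difference of 0.14 (SE 0.16, limma adjusted p = 0.507).

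Bbc3 was dim: its level exceeded the array median in 0 of 23 samples, while each of the other members exceeded it in 23 of 23. Its level was 5.42 to 5.79 in the Pax5+/- leukemias, 5.47 to 5.75 in the Pax5+/- preleukemic samples, 5.44 to 5.72 in the WT leukemias and 5.44 to 5.66 in the WT preleukemic samples. The 4 ranges overlapped, with differences of -0.08 (SE 0.06, limma adjusted p = 0.215) in Pax5+/- and -0.01 (SE 0.09, limma adjusted p = 0.96) in WT mice. At a level this close to the dim end of the array, a change can go unseen.

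Bad, whose protein is held inactive by phosphorylation under growth factor signalling, was 7.02 to 7.22 in the Pax5+/- leukemias and 7.04 to 7.28 before leukemia. In WT mice it was 7.15, 6.91 and 7.01 in leukemia and 7.09, 7.24 and 7.25 before it. The differences were -0.07 (SE 0.05, limma adjusted p = 0.2) and -0.17 (SE 0.08, limma adjusted p = 0.111), and neither passed. After quantile normalization both passed, at -0.20 (adjusted p = 0.00231) and -0.28 (adjusted p = 0.0159).

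**Figure D2:**
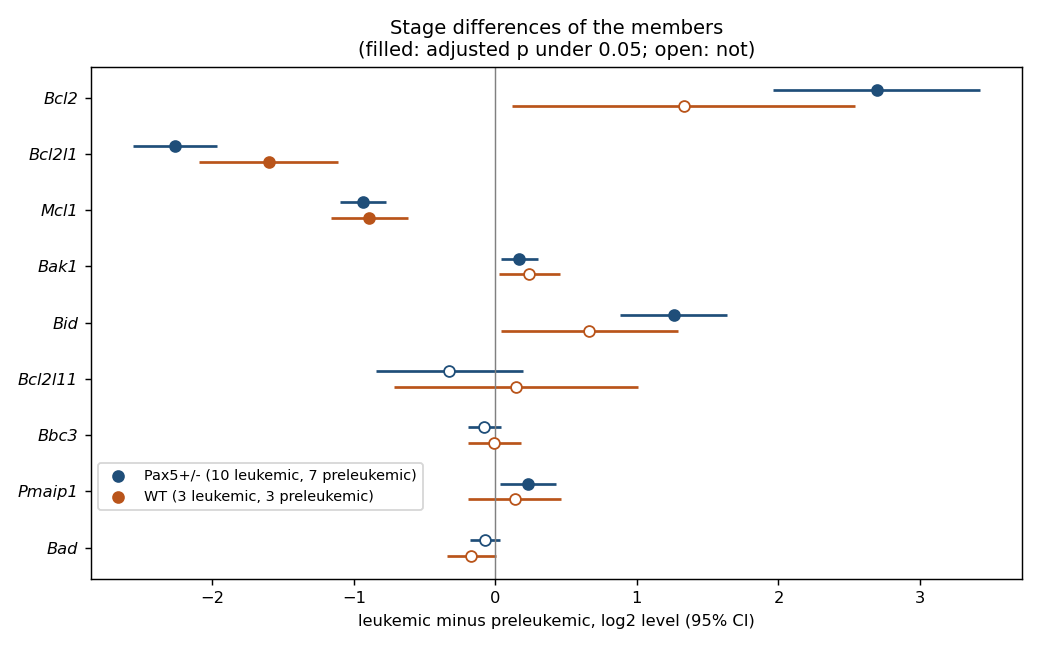
Leukemic minus preleukemic log2 level of the 9 members (horizontal axis) with 95% confidence intervals from limma, in Pax5+/- and WT mice; filled points passed at an adjusted p under 0.05. In Pax5+/- mice Bcl2 (2.69) and Bcl2l1 (-2.26) lie farthest from 0 on opposite sides, and in WT mice Bcl2l1 and Mcl1 are the filled points.

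Counted together, 6 of the 9 members (66.7%) were called in Pax5+/- mice, 4 higher and 2 lower. Over all genes 64.6% were called, 28% higher and 36.5% lower, so the count of calls is near the background. By size, 3 members were called and over 2-fold apart, where 9.92% of all genes were, and 4 members had groups that did not overlap, where 22.4% of all genes had. The median difference was -0.07 for the members and -0.05 over all genes. In WT mice 2 of 9 (22.2%) were called, both lower, where 37.2% of all genes were called, 17.9% higher and 19.3% lower, 1 was also over 2-fold apart, where 9.18% of all genes were, and 3 had groups that did not overlap, where 44.4% of all genes had. The WT median was 0.14, and -0.06 over all genes.

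The leukemias differed more from one another in Bcl2 than in the other survival genes. The SD of Bcl2 over the 10 Pax5+/- leukemias was 0.95, larger than that of 97.7% of the genes tested, and their median gene had an SD of 0.17. In the preleukemic samples the SD of Bcl2 was 0.12, the same as the median gene. The SD of Bid was 0.50 in leukemia, above 90.8% of genes, while those of Bcl2l1 (0.24) and Mcl1 (0.20) were above 66.5% and 57.8%. For Bcl2l11 the SD was 0.69 with leukemia 3 and 0.25 without it.

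Set against the Pax5+/- preleukemic mean, Bcl2 was 1.47 to 4.40 log2 units higher in single leukemias, and Bcl2l1 was lower in each by a narrow span, from -2.58 to -1.85. Leukemia 4 had the highest Bcl2 of the 10 and also the highest Bcl2l1 (7.68), while leukemia 7, with Bcl2 at 9.04, had the lowest Bcl2l1 (6.95). Leukemia 3 had the highest Bid (9.61) and Bcl2l11 (9.40) and the next to highest Pmaip1 (6.98), all 3 of them BH3-only genes. Leukemia 2, highest in Pmaip1 and Mcl1, was next to highest in Bid (9.16). Among the preleukemic samples, no member departed from the mean by more than 0.60, and the widest departure was that of Bcl2l11 in sample 13.

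**Figure D3:**
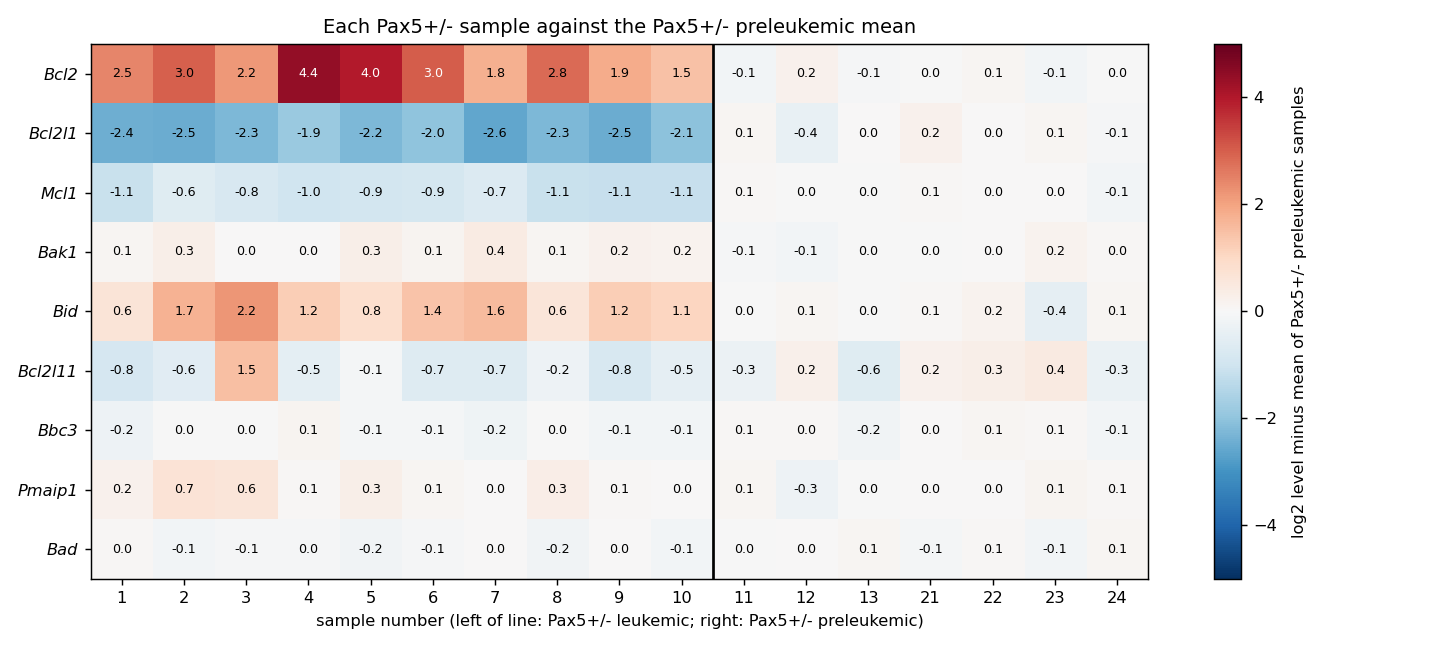
Log2 level of each member (rows) in each Pax5+/- sample (columns, by sample number) minus the mean of the 7 Pax5+/- preleukemic samples; red is higher, blue is lower, and the cell gives the difference. Bcl2 is red by varied amounts (1.47 to 4.40) and Bcl2l1 blue by nearly even amounts in the 10 leukemias, and leukemia 3 alone of the leukemias is red for Bcl2l11 (1.52).

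Genotype was compared at each stage, which asks whether the loss of 1 Pax5 copy went with other family levels. Before leukemia 0 of the 9 members were called with limma, and 0 had an unadjusted p under 0.05, where 0.624% of all genes were called (97 genes) and 8.97% had such a p. No member had groups without overlap, as 5.19% of all genes had. The largest of these differences was in Bcl2, at -0.82 for Pax5+/- minus WT (SE 0.49, limma adjusted p = 0.69; exact permutation p = 0.05). That difference was -0.28 without WT sample 20. The Mcl1 difference was 0.11 (95% CI -0.12 to 0.33) and that of Bcl2l1 was -0.11 (95% CI -0.53 to 0.30).

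In leukemia 0 of the 9 members were called with limma, where 0.341% of all genes were (53 genes), and 1 had an unadjusted p under 0.05, where 5.89% of all genes had, and no member had groups without overlap, as 0.579% of all genes had. The member with the low p was Bcl2l1, at -0.78 for Pax5+/- minus WT (SE 0.19, a fold of 1.71, limma adjusted p = 0.0931; exact permutation p = 0.028). Of the 10 Pax5+/- leukemias, 7 were below all 3 WT leukemias. Without WT leukemia 14 the difference was -1.13 and passed (adjusted p = 0.000564), and without WT leukemia 15 it was the smallest of the leave-outs, at -0.48. The summed erythroid signal was 8.87, 12.29 and 12.47 in WT leukemias 14, 15 and 17 and 8.34 to 9.12 in the Pax5+/- leukemias. Of 5 erythroid markers, 2 were called lower in the Pax5+/- leukemias. The erythroid sum holds no globin gene, since the globin probe sets carried several symbols and were left out. Without WT samples 15, 17 and 20, those with the highest erythroid sums, the Bcl2l1 difference was -0.08 and rested on WT leukemia 14 alone. With the marker covariate described further on it was -0.80 (adjusted p = 0.196), and the part of erythroid cells alone was not tested. Bcl2 differed by 0.54 (95% CI -0.43 to 1.52; 0.17 without WT leukemia 14 and 1.30 without WT samples 15, 17 and 20) and Bid by 0.35 (95% CI -0.16 to 0.86), so a difference of 1 log2 unit in Bcl2 lies inside the interval.

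The stage changes themselves were compared between genotypes by the interaction term. Of the 9 members 0 were called with limma, where 0.0965% of all genes were (15 genes), and 1, Bcl2l1, had an unadjusted p under 0.05, where 7.19% of all genes had. The Bcl2l1 interaction was -0.66 (SE 0.28, limma adjusted p = 0.625). It ran from -1.01 without WT leukemia 14 to -0.37 without WT leukemia 15, and it was 0.19 without WT samples 15, 17 and 20, so no direction is given. The rise of Bcl2 differed by 1.36 (SE 0.68, 95% CI -0.05 to 2.78, limma adjusted p = 0.715) and that of Bid by 0.60 (SE 0.35, limma adjusted p = 0.787). A Bcl2 rise that is past the threshold in Pax5+/- mice and not in WT mice is thus not shown to differ between them.

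The relatives of the members were read from fixed lists that had been drawn up with earlier results of these data known. Of the other survival relatives, 3 of 7 were tested and 1 rose in Pax5+/- leukemia: Bcl2l2, which encodes BCL-w, by 0.43 (SE 0.07, limma adjusted p = 1.05e-05). Its level was 6.18 to 6.73 in leukemia and 5.92 to 6.18 before it, and its WT difference was 0.38 (limma adjusted p = 0.00943). Of 8 other effector and BH3 relatives tested, 2 rose and 4 fell. Bmf, a BH3-only gene known for its role in B cell death, fell by the most, at -1.43 (SE 0.25, limma adjusted p = 5.06e-05) and -1.87 in WT mice (SE 0.41, limma adjusted p = 0.00157). The Bmf level was 7.50 to 9.33 in the Pax5+/- leukemias and 9.36 to 9.91 before leukemia, so the groups did not overlap. Bok, an effector-like relative of BAX and BAK, rose by 0.70 (SE 0.08, limma adjusted p = 4.5e-07) and in WT mice by 0.59 (limma adjusted p = 0.00251). Bcl2l14 rose by 0.55, while Bnip3 and Bnip3l, which mark mitochondria for removal, fell by 0.45 and 0.35. In WT mice 1 of these 8 rose and 3 fell.

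The Bcl2a1 survival genes are near-identical copies in the mouse, so their probe sets cannot be assigned to 1 copy. A fit over 21518 probe sets was added after the data had been seen to read 3 probe sets shared by 4 copies, and 1 named for Bcl2a1c. Their Pax5+/- stage differences were 0.72 to 0.88, with limma adjusted p from 0.096 to 0.187. Leukemia 2 stood far above the rest on all 4 probe sets, at 8.59 to 10.76, while the next highest leukemia was at 6.51 to 8.05. The preleukemic samples of both genotypes were at 4.26 to 6.54 on the same probe sets.

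Downstream of the family lie the apoptosome and the caspases, of which 14 of 16 were tested. In Pax5+/- leukemia 7 rose and 3 fell, and in WT leukemia 6 rose and 2 fell. The largest rises were of Vdac1, a channel of the mitochondrial outer membrane that BCL2 proteins bind (1.27, SE 0.10, limma adjusted p = 1.17e-09), and Htra2, a mitochondrial protease that relieves caspase inhibition (1.18, SE 0.10, limma adjusted p = 4.86e-09). Vdac2, which holds BAK at the membrane, rose by 0.55. Casp9, the initiator caspase of the apoptosome, fell by 0.56 (SE 0.07, limma adjusted p = 1.43e-06), and Dffa and Diablo fell by 0.40 and 0.32. The WT differences were 1.18 for Vdac1, 1.13 for Htra2 and -0.51 for Casp9, all called.

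Of 7 caspase inhibitor genes, 1 rose and 2 fell in Pax5+/- leukemia. Birc5, which encodes survivin and also serves cell division, rose by 1.01 (SE 0.20, limma adjusted p = 0.000163), from 7.04 to 7.52 before leukemia to 7.59 to 8.56 in it. Birc3, which encodes the ubiquitin ligase cIAP2, fell by 1.42 (SE 0.15, limma adjusted p = 1.09e-07), and Birc2 fell by 0.34. In WT mice Birc5 and Birc3 were the genes called, at 1.11 and -1.62.

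Of the death receptor genes, which act upstream of Bid, 7 of 9 were tested, and 4 rose and 1 fell in Pax5+/- leukemia. Tnfrsf1a, the main receptor of TNF, rose by 1.95 (SE 0.18, limma adjusted p = 1.45e-08), with levels of 7.67 to 8.44 in leukemia and 6.07 to 6.32 before it. Cflar, a decoy that blocks caspase-8, rose by 0.43, and Tnfrsf10b, the TRAIL receptor, by 0.36, while Tradd fell by 0.16. In WT mice Tnfrsf1a (1.48) and Tnfrsf10b (0.69) were called, and preleukemic sample 20 held the highest WT preleukemic Tnfrsf1a level, 8.00.

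Regulators of family levels were the longest list and had the most falls. Of 20 tested of 22, 3 rose, 12 fell and 5 did not pass in Pax5+/- leukemia, where 28% of all genes rose and 36.5% fell. Myc, which drives growth and sensitises cells to death, rose by 3.62 (SE 0.34, limma adjusted p = 1.31e-08), with levels of 9.07 to 11.95 in leukemia and 7.19 to 8.03 before it. Foxo1, a transcription factor of early B cells whose family activates Bcl2l11, fell by 2.08 (SE 0.18, limma adjusted p = 2.82e-09), from 10.72 to 11.25 before leukemia to 8.20 to 9.55 in it. Pim2, a survival kinase, fell by 1.59, and Mdm2, the p53 antagonist and p53 target, by 0.95. Usp9x, which removes ubiquitin from MCL1, rose by 0.45, and Huwe1, which adds it, by 0.24. In WT mice Myc (2.80), Foxo1 (-2.40), Pim2 (-0.97) and Mdm2 (-0.87) were called, and Usp9x (0.16) and Huwe1 (-0.04) were not. Over these 6 lists 40 of 59 genes tested were called in Pax5+/- mice and 25 of 59 in WT mice, where 64.6% and 37.2% of all genes were. The median Pax5+/- difference was 0.43 for the other survival relatives, -0.21 for the other effector and BH3 relatives, 0.09 for the apoptosome and caspases, 0.04 for the caspase inhibitors, 0.25 for the death receptor genes and -0.23 for the regulators, beside -0.05 over all genes. Between the genotypes limma called 0 of the 59 at either stage, where 0.624% of all genes were called before leukemia and 0.341% in leukemia. An unadjusted limma p under 0.05 was found for 6 before leukemia and 3 in leukemia, where 8.97% and 5.89% of all genes had one.

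**Figure D4:**
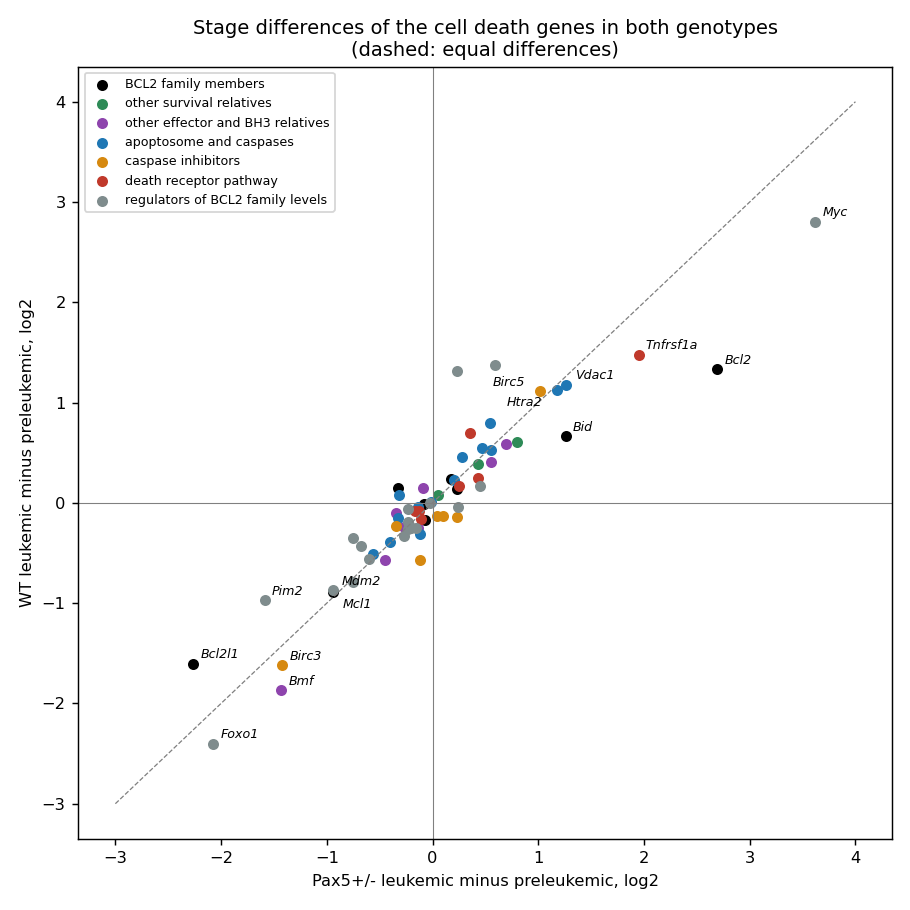
Leukemic minus preleukemic log2 difference of each tested family and pathway gene in Pax5+/- mice (horizontal axis) and WT mice (vertical axis), coloured by list; the dashed line marks equal differences and the farthest genes are named. Bcl2 (2.69 and 1.33) lies below the line, Bcl2l1 (-2.26 and -1.60) above it, and Myc and Foxo1 lie farthest out among the other genes.

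Markers of some other cell types moved with the stage. Over all genes, 28% were called higher and 36.5% lower in Pax5+/- mice, and 17.9% and 19.3% in WT mice. In Pax5+/- mice the T cell, NK cell, erythroid, mature B cell and plasma cell counts below were near or under these shares. The neutrophil and T cell counts in WT mice were under them. In Pax5+/- mice 5 of 5 megakaryocyte, 11 of 14 neutrophil, 9 of 12 monocyte and macrophage, 8 of 10 stromal and endothelial, 3 of 9 T cell and 1 of 9 NK cell markers rose, and 1 stromal marker fell. Of 7 early B cell markers 5 fell, of 5 erythroid markers 1 rose and 1 fell, of 5 mature B cell markers 1 fell, and of 9 plasma cell markers 2 rose and 4 fell. The summed megakaryocyte signal was 9.24 to 9.53 before leukemia and 11.20 to 13.99 in it, that of neutrophils 10.18 to 11.34 and 10.44 to 15.20, and that of monocytes 9.91 to 10.55 and 11.53 to 14.00. The stromal sum was 10.96 to 11.14 and 11.29 to 12.43. In the Pax5+/- preleukemic samples 4 neutrophil markers (Prtn3, Ctsg, Mmp8, Cxcr2) and 4 monocyte markers (Ccr2, Adgre1, Cd14, Fcgr1) were never above the array median, and in the leukemias none of either list was. In WT mice the sums before and in leukemia were 9.26 to 9.29 and 13.01 to 13.54 for megakaryocytes and 10.76 to 15.14 and 14.00 to 14.71 for neutrophils. They were 10.27 to 13.26 and 13.09 to 13.31 for monocytes, 10.82 to 10.98 and 11.65 to 11.84 for stroma, and 9.19 to 12.05 and 8.87 to 12.47 for erythroid cells. In WT leukemia 5 of 5 megakaryocyte, 1 of 14 neutrophil, 5 of 12 monocyte and macrophage, 7 of 10 stromal and endothelial, 3 of 5 erythroid and 1 of 9 T cell markers rose, and 1 stromal marker fell. Of the B lineage lists, 6 of 7 early B cell and 1 of 5 mature B cell markers fell and 3 of 9 plasma cell markers rose and 2 fell, and 1 of 9 NK cell markers fell. The part of these cells in the WT differences of Bcl2l1 and Mcl1 was not tested beyond the marker covariate given next.

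Leukemias 4 and 7 had summed neutrophil signals of 10.44 and 10.79, inside the range of the Pax5+/- preleukemic samples. Their Bcl2 levels were 11.65 and 9.04, their Bid levels 8.65 and 9.01, their Bcl2l1 levels 7.68 and 6.95 and their Mcl1 levels 9.65 and 9.96, all outside the Pax5+/- preleukemic ranges. The same leukemias had megakaryocyte sums of 13.99 and 12.02, monocyte sums of 11.55 and 11.86 and stromal sums of 11.61 and 11.88. These were not inside the Pax5+/- preleukemic ranges either. Leukemia 4, highest in Bcl2, had the highest megakaryocyte sum of the 10, and leukemias 9 and 7, with Bcl2 at 9.10 and 9.04, had the lowest, 11.20 and 12.02. Leukemia 10, with the lowest Bcl2 (8.72), had a megakaryocyte sum of 13.24. The part of neutrophils alone or of megakaryocytes alone in the Bcl2, Bid, Bcl2l1 and Mcl1 levels was not tested. With the first component of 64 marker genes as a covariate, the Pax5+/- differences were 2.01 for Bcl2 (adjusted p = 0.0131), -2.20 for Bcl2l1 (adjusted p = 1.88e-06), -0.96 for Mcl1 (adjusted p = 2.9e-05) and 0.95 for Bid (adjusted p = 0.024). Bak1 (0.20, adjusted p = 0.166) and Pmaip1 (0.06, adjusted p = 0.8) did not pass in this fit. In WT mice Bcl2l1 (-1.53) and Mcl1 (-0.91) passed in it, and Bcl2 was at 0.62 (adjusted p = 0.617). Megakaryocyte sums did not overlap between the stages in either genotype, so a covariate drawn from these markers can run with the stage. The fit therefore cannot separate cell makeup from stage. Leukemias 2 and 6 had the highest neutrophil sums, 14.90 and 15.20, and Bcl2a1 was high in leukemia 2 alone of the pair (10.76 against 6.83 on 1 shared probe set). Leukemia 2 also had the highest monocyte, T cell, NK cell and mature B cell sums of the 10. The part of these cells and of neutrophils in its Bcl2a1 level was not tested.

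**Figure D5:**
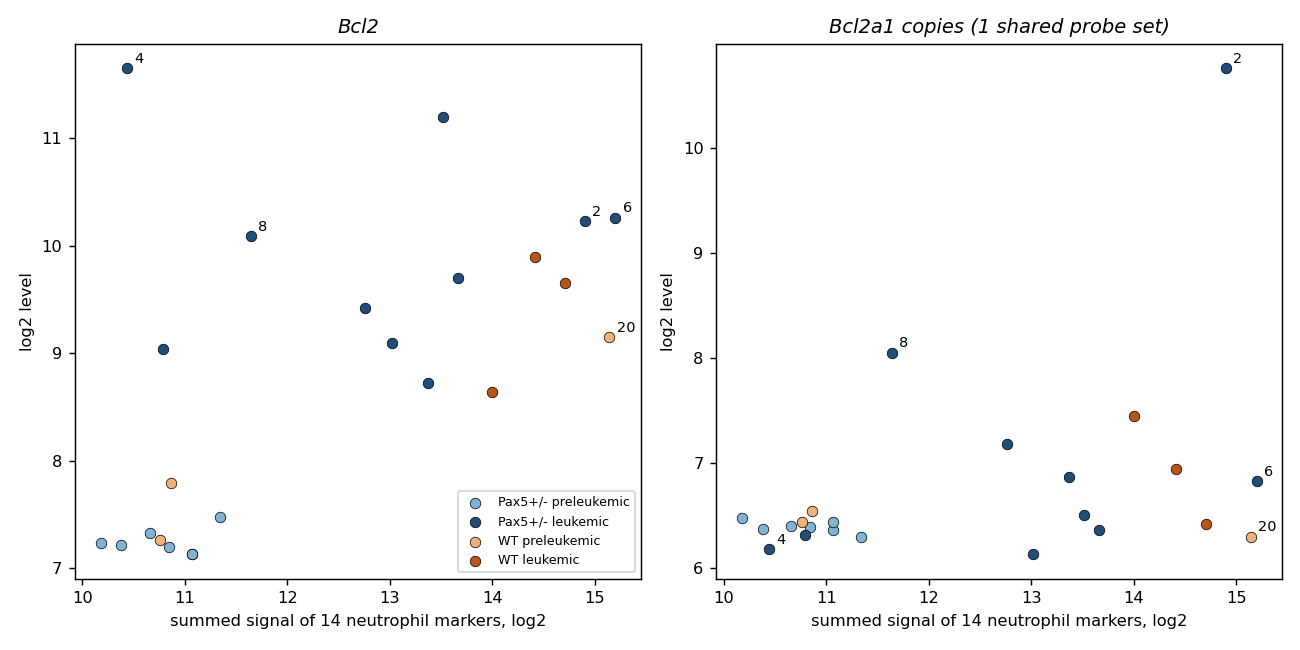
Log2 level of Bcl2 (left) and of 1 probe set shared by the Bcl2a1 copies (right) against the log2 of the summed signal of 14 neutrophil markers, 1 point per sample, coloured by group, with some sample numbers. Leukemia 4 has the highest Bcl2 (11.65) at a neutrophil sum of 10.44, preleukemic sample 20 lies with the leukemias at 15.14, and leukemia 2 stands alone in Bcl2a1 (10.76).

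The genes whose levels ran most like those of Bcl2 over the 23 samples were Gimap5 (Pearson r = 0.937), Ptpre (0.919) and Rsu1 (0.919). For deviations from the group means, which leave out the difference between stages, they were Cd27 (0.839), Slc25a12 (0.816) and Gimap5 (0.813). For Bcl2l1 the genes were Adam10 (0.965), Ammecr1 (0.963) and Tmem163 (0.961) by level, and Tspan9 (0.802), Abcb9 (0.781) and Clcn2 (0.772) by deviation. These are the highest of 15542 genes and are given as a description; the samples share stage, cell makeup and array.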

How the data were processed

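Total RNA of 23 samples was extracted with Trizol and labelled with biotin, and 1-colour arrays were run, per the labels' protocols. The authors deposited log2 probe set signals made with Transcriptome Analysis Console, per the submitters' processing notes; the background correction and normalization are not given in the sources used here. They ran from 3.65 to 14.2. Precision is limited by how many arrays there were. Of 28944 probe sets, 21789 had 1 symbol in the platform annotation, 1621 several and 5534 none, and the last 2 kinds were left out. Each symbol was read from its brightest probe set. Genes entered the tests where 3 or more arrays had them over the array's 30th percentile, which removed 4396 of 19938.

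Groups came from the titles. One limma fit (version 3.58.1, R 4.3.3) covered all 4 (lmFit, eBayes with trend, two-sided, Benjamini-Hochberg over all 15542 genes, threshold 0.05), and exact two-sided permutation tests were run on single members. The fit pooled the spread of each gene over all groups, so an SE given for WT mice does not measure the WT spread alone. Folds are 2 raised to the log2 difference. Summed marker signals are the log2 of the sum of linear signals. The members and lists were chosen with earlier results of these data known. Named were all members and, of each family or pathway list, up to 3 genes of largest difference in each direction that passed in the Pax5+/- stage comparison, and the 3 genes most like Bcl2 and Bcl2l1. Examples of values within these were then chosen. In simulated data with 15542 genes, 92.7% of genes changed by 1 log2 unit were recovered for the Pax5+/- stage comparison, 78% for WT stage, 87.9% and 89% for genotype before and in leukemia and 75.2% for the interaction, and 8 to 13 unchanged genes were called. Recovery at the spreads of single members was not tested. For Bcl2 the SD was 0.12 in the Pax5+/- preleukemic samples and 0.95 in the Pax5+/- leukemias. Alternatives were 14 settings, 1 added fit over all probe sets, and each sample left out in turn. A further WT leukemia, sample 16, was not analysed here. Figures were drawn with matplotlib 3.10.9.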

Additional observations from a re-analysis of the deposited data

Results flagged for a closer look

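Of 26 groups of 4 to 10 samples examined for a sample far from the others, 7 had one, where chance gives about 1 in 20. Bcl2l11 in Pax5+/- leukemia 3 was at 9.4, and the next highest leukemia was at 7.79. Pmaip1 in Pax5+/- preleukemic sample 12 was at 6.12, and the next lowest was at 6.36. Bid in Pax5+/- preleukemic sample 23 was at 6.98, and the next lowest was at 7.41. The other 4 were all Pax5+/- leukemia 2 on the Bcl2a1 probe sets, which read near-identical copies and are not independent: 10.16 (next 7.56), 10.11 (next 7.23) and 10.76 (next 8.05) on the shared probe sets and 8.59 (next 6.51) on that of Bcl2a1c. No stage difference of a member differed between the genotypes in the interaction test.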

How the results depend on the processing

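With each sample left out in turn, the members called ranged from 5 to 6 for the Pax5+/- stage comparison, 2 to 4 for WT stage (4 without WT preleukemic sample 20), 0 to 1 for genotype in leukemia (1 without WT leukemia 14) and stayed at 0 for genotype before leukemia and the interaction. Under the other settings the Pax5+/- count was 4 to 6. With array weights 5 members were called for WT stage (Bcl2, Bid and Bak1 added). The same weights called 1 member for genotype in leukemia (Bcl2l1, -0.84, adjusted p = 0.0281). The all-gene count for genotype in leukemia also rose, from 53 to 127 with array weights and to 160 without WT leukemia 14. For WT stage the member counts were not set against all genes under the same setting. Bcl2, Bcl2l1, Mcl1 and Bid kept their Pax5+/- calls under every setting and leave-out, at 2.01 to 2.83, -2.34 to -2.20, -1.03 to -0.92 and 0.95 to 1.33, and no called member reversed. No member was read by a second probe set, so that setting gave nothing further.

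Over all genes, the marker covariate left 4374 called for the Pax5+/- stage, 2773 for WT stage and 2 for genotype in leukemia. With only the compared groups fitted, and so fewer samples, WT stage had 3537, genotype in leukemia 1 and genotype before leukemia 231. Array weights gave 82 for the interaction, 127 for genotype in leukemia and 444 before it. Without leukemias 2, 6 and 7 the interaction had 25 and genotype before leukemia 162; without WT samples 15, 17 and 20 the interaction had 25 and genotype in leukemia 9. The Xist covariate left 21 for genotype in leukemia. Where not stated, the cause was not tested. Leaving out 1 sample gave 9491 to 10200 for Pax5+/- stage, 3794 (without WT 19; 3828 without WT 18) to 6902 for WT stage, 6 (without WT 19; 9 without WT 15) to 98 (without WT 14; 36 without WT 20, 24 without leukemia 7) for the interaction, 0 (without WT 15; 5 without WT 17) to 160 (without WT 14) for genotype in leukemia, and 40 (without WT 19) to 137 for genotype before it. No paired analysis was run, and the running sample numbers do not show pairs. In 1 of the 14 settings, samples with the same letter in their source label were treated as a block.

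A group of 3 WT samples limits these comparisons, and Bbc3 lies near the dim end of the array.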
